A study of Mus musculus with 6 samples.

Results

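Non-classical monocytes of mouse blood were picked out as 673 cells among 49025 barcodes kept in 6 single-cell RNA-seq libraries of peripheral blood mononuclear cells (PBMCs). A barcode was kept with at least 200 detected genes and at most 20% of its unique molecular identifiers (UMIs, 1 per captured transcript molecule) from mitochondrial genes. A kept barcode counted as a non-classical monocyte when it held at least 2 UMIs of Ace, Ear2, Adgre4 and Treml4 together and at least 1 UMI of Csf1r and Lyz2 together. It also had to hold at most 1 UMI of the classical monocyte genes F13a1, Chil3 and Ccr2, 0 UMIs of Cd3d, Cd3e and Cd3g, and at most 1 UMI of Cd79a, Cd79b and Ms4a1. These 15 genes chose the cells, so their values are described and not tested.

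The group called T2D consisted of 3 libraries from male mice aged 12 to 13 weeks with an intraperitoneal streptozotocin injection, in a series whose title names a high-fat diet with streptozotocin as the type 2 diabetes model. Streptozotocin kills pancreatic beta cells, the source of insulin. The group called Con consisted of 3 libraries from male mice of the same age injected with saline by the same route. The sources used here give neither the strain nor the diet of the Con mice. They also leave unsaid how many mice went into a library, so the p-values speak only of library-to-library spread, which may be technical. PBMCs were separated on a Ficoll gradient, red cells were lysed, and libraries of transcript 3′ ends were made on the BD Rhapsody platform, which captures single cells in microwells.

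Blood monocytes of the mouse fall into 2 main types. Classical monocytes carry Ly6C and CCR2 and leave the blood for inflamed tissue. Non-classical monocytes carry little Ly6C and much CX3CR1, derive from classical ones, and crawl along the vessel wall with the help of the integrin LFA-1, clearing debris and sensing nucleic acids through TLR7. Their development and survival require the nuclear receptor Nr4a1, and in vascular disease they have been studied mainly for their contact with endothelium and lipoproteins.

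Library totals lay between 23504541 and 32229459 UMIs in kept barcodes, with 7339 to 8997 kept barcodes each. Non-classical cells numbered 70, 130 and 149 in T2D libraries 1, 2 and 3, against 175, 53 and 96 in Con libraries 1, 2 and 3. Their median depth was 3508.5, 3798.5 and 3464 UMIs per cell in T2D, against 3647, 2722 and 3887.5 in Con. Con library 2 therefore had the fewest and the shallowest cells, with 157517 UMIs in all members, while the other 5 libraries had between 245996 and 666299. A doublet score above 0.25, a threshold set after automatic ones failed in most libraries, was given to 3, 7 and 8 members of the T2D libraries and to 17, 7 and 10 members of the Con libraries. These cells were kept and left out in an alternative. Pairs of libraries shared 65 to 89 cell barcodes, and 0 barcodes were non-classical members in both libraries of any pair.

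The label was first checked on genes outside the choice of cells. All 12 further non-classical markers were higher in the non-classical cells than in 855 classical monocytes of the same libraries, which were taken with at least 2 UMIs of F13a1, Chil3 and Ccr2 and at most 1 UMI of the 4 non-classical genes. Values are UMIs of a gene in the summed cells of a library, scaled to a total of 1000000 UMIs per library (CPM), means ± SD over n = 6 libraries. Fcgr4, the activating receptor for IgG2 antibodies, averaged 1051 ± 343 CPM in non-classical and 43.5 ± 12.8 CPM in classical monocytes, a log2 difference of 4.55 ± 0.11 (SE; edgeR's quasi-likelihood test with the library as block, Benjamini-Hochberg adjusted p = 1.08e-29). Nr4a1 averaged 4660 ± 1399 CPM against 1778 ± 427 CPM. The fractalkine receptor Cx3cr1 averaged 818 ± 76.8 CPM against 295 ± 29.7 CPM, and Spn, the sialophorin CD43, 843 ± 139 CPM against 136 ± 21.8 CPM.

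The LFA-1 alpha chain Itgal averaged 1862 ± 195 CPM in non-classical and 384 ± 26.0 CPM in classical monocytes, and the scavenger receptor Cd36 averaged 1286 ± 228 CPM against 12.2 ± 9.45 CPM. The transcription factor Pou2f2 averaged 1453 ± 110 CPM against 231 ± 24.7 CPM, and the enolase Eno3 344 ± 23.1 CPM against 4.48 ± 2.09 CPM. Of 8 further classical markers, 7 were lower by at least 1 on the log2 scale. Ly6c2, which encodes Ly6C, averaged 60.1 ± 25.8 CPM in non-classical and 1999 ± 238 CPM in classical monocytes, and fibronectin Fn1 averaged 6.20 ± 3.94 CPM against 2058 ± 280 CPM. The exception was haptoglobin, Hp, at 308 ± 110 CPM against 561 ± 42.0 CPM, a log2 difference of -0.88.

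**Figure D1:**
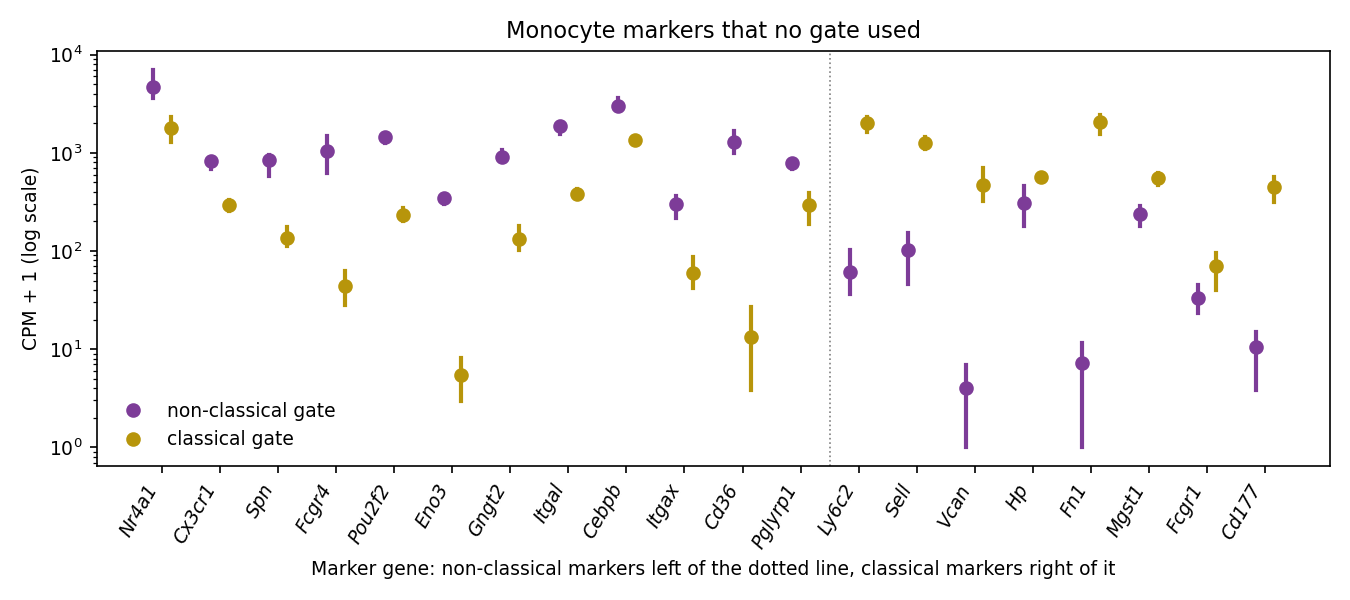
Expression of monocyte markers outside the choice of cells, on a log axis of CPM plus 1, in non-classical (purple) and classical (gold) monocytes. Points are means and lines run from the lowest to the highest of 6 libraries. The dotted line parts the 12 non-classical markers, where purple lies above gold, from the 8 classical markers, where it lies below.

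Across all genes outside the choice of cells, 943 of 6248 tested (15.1%) differed between non-classical and classical monocytes with an adjusted p under 0.05 and at least 1 on the log2 scale. Of these, 383 were higher in non-classical cells (6.13%) and 560 lower (8.96%). Fatty acid binding protein Fabp4 had 573 UMIs in the 6 non-classical sums and 1 UMI in the classical ones, with a mean of 234 ± 58.8 CPM against 0.235 ± 0.577 CPM (n = 6). The adrenergic receptor Adrb1 had 482 UMIs against 1, the activating receptors Cd300e and Lilra5 had 1224 against 5 and 537 against 3, and the ion cotransporter Slc12a2 had 2642 against 29. Pparg, the lipid-sensing nuclear receptor that acts on Fabp4 and Cd36 in macrophages, averaged 176 ± 28.0 CPM in non-classical and 2.65 ± 2.36 CPM in classical monocytes. Tmem26 and the dynein heavy chain Dnah12 completed the 10 genes with the largest positive difference, at 131 ± 16.9 CPM against 1.43 ± 1.31 CPM and at 122 ± 59.6 CPM against 1.69 ± 1.33 CPM.

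On the lower side, Vcan (a matrix proteoglycan) had 9 UMIs in non-classical and 1975 UMIs in classical sums, the adaptor Gas7 7 against 727, and Cd177 23 against 1765. Other genes among the 10 largest negative differences are known mainly from other cells. The neutrophil granule genes Camp, Ltf, Ngp and Mmp8 had 1, 10, 34 and 26 UMIs in non-classical sums, against 1079, 3055, 9345 and 2890 UMIs in classical sums. The natural killer receptor gene Klra8 had 5 against 512 UMIs, and Cd209a, a lectin of dendritic cells and some monocytes, had 0 against 406 UMIs. The classical gate thus holds transcripts of other cells: its 10 neutrophil markers summed to 4188 to 20051 CPM and its 7 platelet markers to 1460 to 4244 CPM across libraries. With both gates narrowed against such cells, 641 of the 673 non-classical and 172 of the 855 classical cells stayed, and 450 genes passed; this narrowing was added after seeing the data.

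Transcripts of other cells were also counted within the non-classical sums. The 10 neutrophil markers summed to 195, 1819 and 316 CPM in T2D libraries 1, 2 and 3, against 2167, 1473 and 940 CPM in Con libraries 1, 2 and 3, so that 2 of 3 T2D libraries lay below every Con library. Hemoglobin and other erythroid markers summed to 366, 4247 and 324 CPM in T2D, against 132, 121 and 144 CPM in Con, which was higher in every T2D library and by far the highest in T2D 2. The 11 B cell markers summed to 1179 to 1721 CPM in T2D and 1041 to 1610 CPM in Con. Platelet markers summed to at most 508 CPM, in Con 2. Of 8 tissue macrophage markers, C1qa, C1qc, Mertk, Timd4 and Cd163 had 0 UMIs in all 6 sums, where a count of 0 allows up to 1.23 CPM.

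At the edge of the gate, 54 members held exactly 2 UMIs of Ace, Ear2, Adgre4 and Treml4 and 619 held more, while 136 barcodes met every other condition with 1 such UMI. Neutrophil S100a8 reached 6226 CPM in the members with 2 and 165 CPM in those with more, against 16283 CPM in the barcodes just outside. Csf1r, the receptor that monocytes need for survival, was at 1031 and 1966 CPM, against 369 CPM just outside, and Eno3 at 200.4 and 344 CPM, against 20.04 CPM. Members at the edge thus lay between the other members and the outside cells in these genes. Requiring 3 marker UMIs is 1 of the alternatives below.

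Within the members, single cells varied in which marker was seen. A UMI of Ace, the angiotensin-converting enzyme, was found in 95.9% of T2D and 93.4% of Con cells on average over libraries, against 1.799% and 1.62% of B cells (at least 3 UMIs of Cd79a, Cd79b and Ms4a1). Adgre4 was seen in 85.0% of T2D and 85.5% of Con members, Ear2 in 74.9% and 76.1%, and Treml4 in 74.2% and 72.1%. B cells had median depths of 2650 to 2919 UMIs per library and carried Adgre4 in a median of 1.04%, Ear2 in 0.691% and Treml4 in 0.464% of cells over libraries, and in at most 1.43%, 1.33% and 1.11%.

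The question of the design is whether these cells differ in number or in transcripts between T2D and Con. Non-classical monocytes made up 0.778%, 1.47% and 1.82% of kept barcodes in T2D libraries 1, 2 and 3, with Wilson 95% intervals of 0.616 to 0.982%, 1.24 to 1.75% and 1.55 to 2.13%. They made up 2.31%, 0.722% and 1.18% in Con libraries 1, 2 and 3, with intervals of 2.00 to 2.67%, 0.553 to 0.943% and 0.970 to 1.44%, all of which cover counting error only. The group means were 1.36% ± 0.531 in T2D and 1.41% ± 0.817 in Con (SD, n = 3 each), a log2 ratio of -0.05. The groups overlapped throughout and an exact two-sided permutation test gave p = 1.0, where 3 against 3 libraries cannot go below 0.1.

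Among the monocytes of both gates, non-classical cells were 36.3%, 33.7% and 56.9% in T2D, against 58.5%, 27.5% and 49.2% in Con. The means were 42.3% ± 12.7 in T2D and 45.1% ± 15.9 in Con (SD, n = 3 each; exact two-sided permutation p = 0.9). Libraries of 1 group differed by more than the group means did, so a difference in number was not detectable with these libraries.

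**Figure D2:**
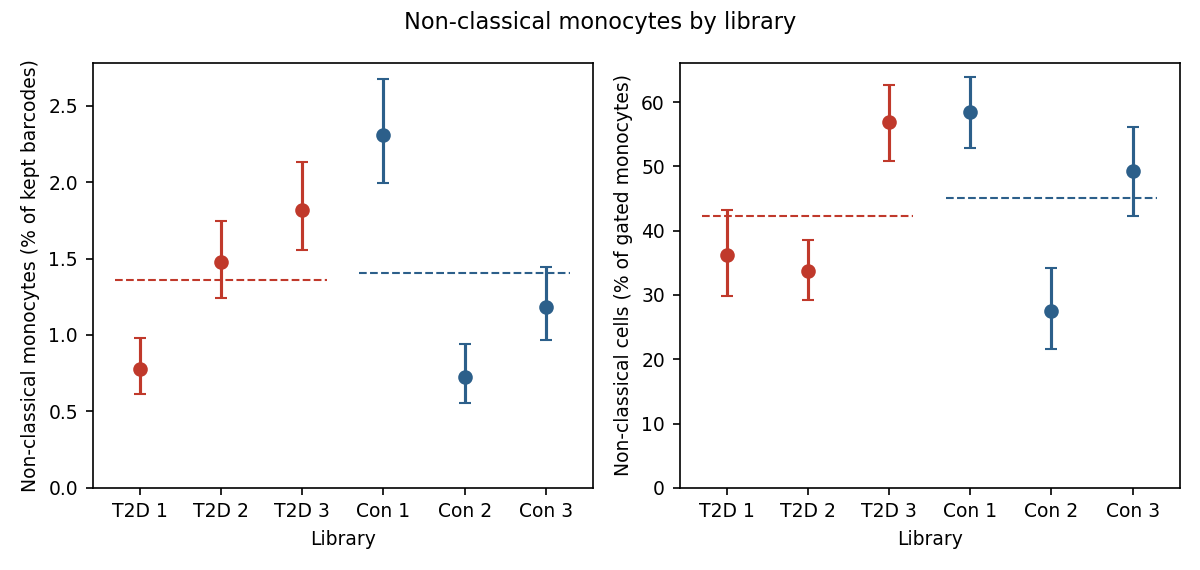
Non-classical monocytes per library in T2D (red, left) and Con (blue, right). The left panel gives their percentage of kept barcodes with Wilson 95% intervals as bars, and the right panel their percentage of gated monocytes, with group means as dashed lines. The groups overlap in both panels.

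The 4 non-classical genes that chose the cells overlapped between the groups. They summed to 3504, 3837 and 4099 CPM in T2D and 3863, 3873 and 3810 CPM in Con. Ace averaged 1466 ± 232 CPM in T2D and 1480 ± 159 CPM in Con, Ear2 883 ± 118 and 877 ± 206 CPM, Adgre4 894 ± 45.7 and 994 ± 53.5 CPM, and Treml4 570.5 ± 18.1 and 498 ± 79.9 CPM (SD, n = 3 each). Csf1r averaged 2099 ± 261 CPM in T2D and 1725 ± 233 CPM in Con. Of the genes that the choice capped at 1 UMI per cell, a pair stood apart between groups: the classical gene Chil3 was at 24.4, 23.9 and 33.0 CPM in T2D, against 10.5, 19.0 and 11.3 CPM in Con, and the B cell gene Cd79a at 4.07, 3.98 and 7.76 CPM in T2D, against 16.5, 19.0 and 16.9 CPM in Con.

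In transcripts, 43 of 5664 genes tested (0.759%) differed between T2D and Con non-classical monocytes at an adjusted p under 0.05 (edgeR's quasi-likelihood test, Benjamini-Hochberg adjustment over all genes tested). Of these, 13 were higher in T2D (0.23%) and 30 lower (0.53%). The genes that rose included the heme-degrading enzyme Hmox1, the antibody receptor Fcgr4 and the lipid genes Plin2, Abcg1 and Ucp2. Those that fell included the lipopeptide receptor Tlr2, NF-kB pathway genes Rel, Nfkbiz and Tnfaip3, and the quickly induced genes Csrnp1 and Ier2. The median log2 fold change over all genes tested was 0.01, and 434 genes had an unadjusted p under 0.05. DESeq2 called 26, but its own filter left only 916 genes with an adjusted p. A gene that DESeq2 did not call may therefore not have been judged by it. All 32 genes named by the rule had no overlap between the groups, which held for 13.3% of all genes tested. They were called on these same sums, so the lack of overlap is no added evidence.

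The count rests on the number of libraries. It came to 18 without Con 1, 19 without Con 2 and 18 without T2D 3, and to 43 to 57 without each of the others. Of the 32 named genes, 10 passed in all 6 of these fits: Hmox1, Fcgr4, Shtn1, Tlr2, Csrnp1, Klf10, Tgif1, Rel, Nfkbiz and Cdkn1a. Where a called gene named below is not among these 10, the libraries whose omission ended its call are given. A further alternative set the gate on cells thinned to 1000 UMIs. It chose 893 cells against 673, since thinning also eases the upper limits, and their full counts were summed. It is therefore a change of cells and not a comparison at equal depth. There 14 of the 32 calls ended, those of Csrnp1, Nfkbiz, Tnfaip3, Nr4a1, Ier2, Dusp5, Irgm1, Fkbp5, H1f2, Dnah12, Plk3, Cd84, Cd22 and AI504432.

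**Figure D3:**
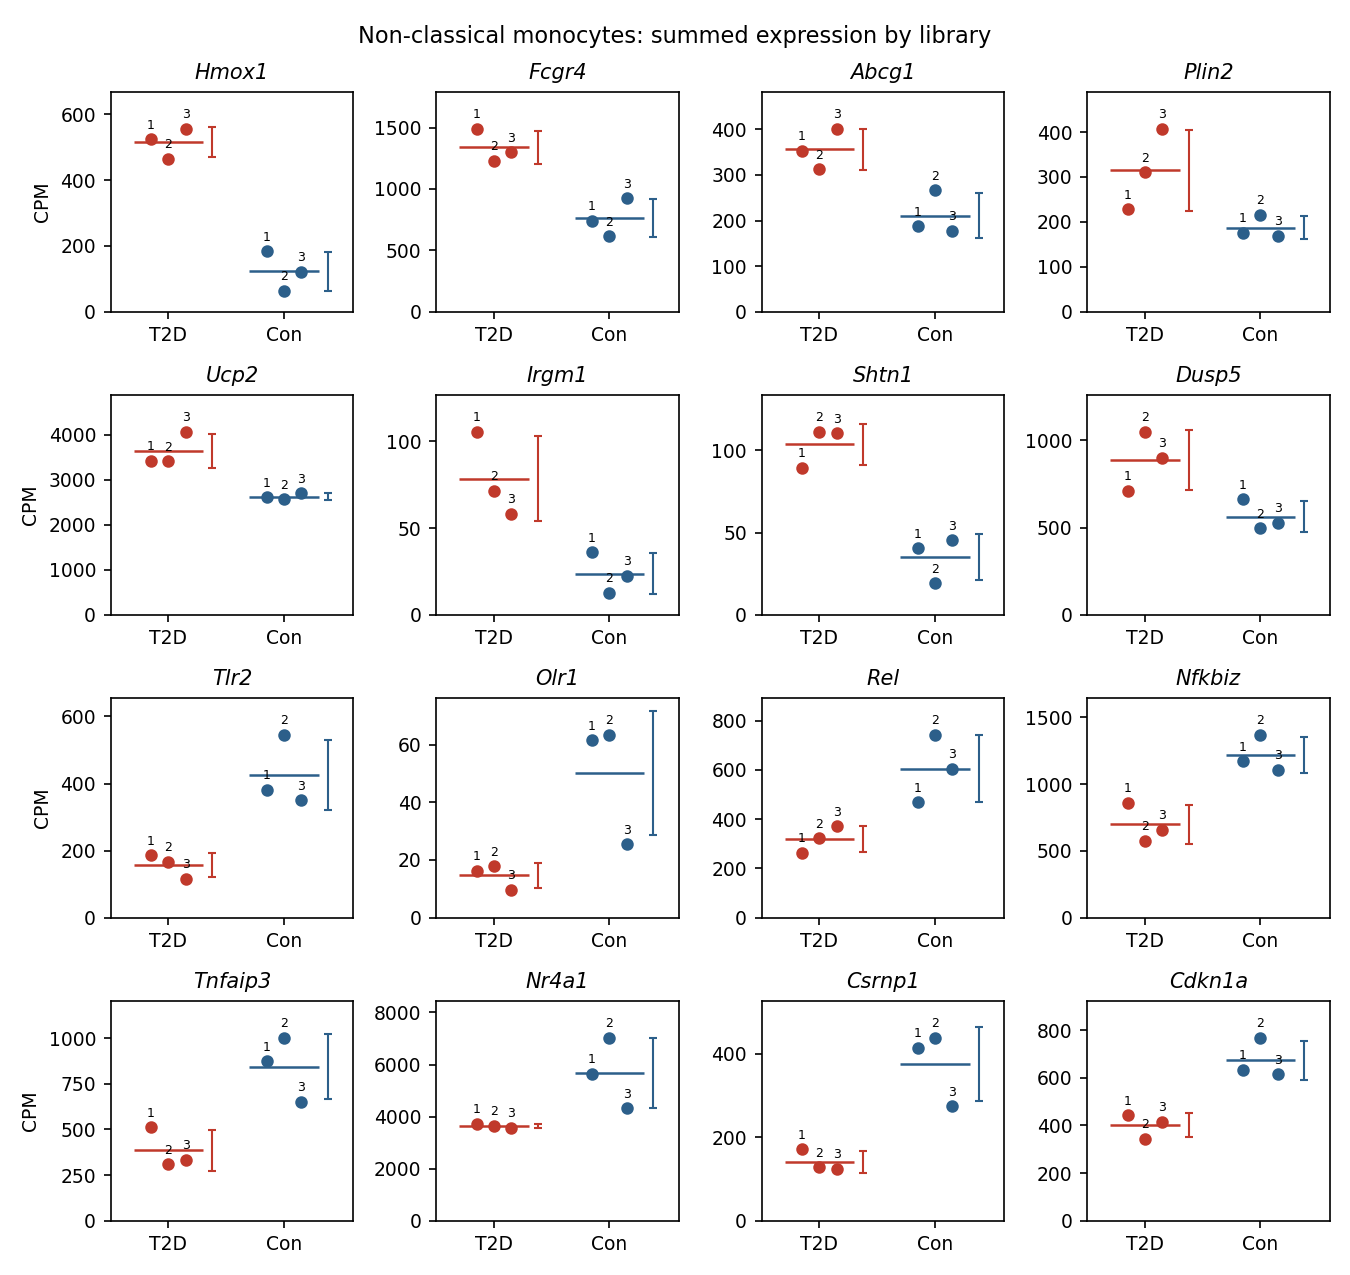
Expression of 16 genes in the summed non-classical cells of each library, in CPM, with T2D (red) left of Con (blue). Points carry the library number, horizontal lines are group means and vertical bars SDs (n = 3 each). In these 16 genes the points of the 2 groups do not overlap.

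Hmox1, heme oxygenase 1, splits heme into biliverdin, carbon monoxide and iron. It stood at 524, 466 and 557 CPM in T2D libraries 1, 2 and 3, against 183, 63.5 and 121 CPM in Con libraries 1, 2 and 3. The means were 516 ± 46.3 CPM in T2D and 123 ± 59.8 CPM in Con (SD, n = 3 each), a log2 fold change of 1.90 ± 0.21 (SE; adjusted p = 1.68e-05, edgeR). Every T2D library was above every Con library, but the transcripts were concentrated in few cells.

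The 5 cells with most Hmox1 UMIs held 85.3%, 70.5% and 78.7% of all Hmox1 UMIs of the members in T2D libraries 1, 2 and 3, against 56.6%, 80.0% and 58.1% in Con libraries 1, 2 and 3. For Fcgr4 the 5 richest cells held 21.8%, 15.0% and 11.9% in T2D and 13.2%, 34.0% and 23.8% in Con. Cells with at least 10 Hmox1 UMIs, a limit set after seeing the values, numbered 3, 5 and 4 in T2D and 2, 0 and 1 in Con, or 12 of 349 and 3 of 324 members. The richest cell held 62, 78 and 99 Hmox1 UMIs in T2D libraries 1, 2 and 3, against 38, 3 and 11 in Con libraries 1, 2 and 3. In the remaining members Hmox1 was at 121, 144 and 142 CPM in T2D, against 112, 63.5 and 91.6 CPM in Con. The T2D libraries stayed above the Con libraries without these 15 cells, at group means of 136 ± 12.8 CPM in T2D and 89.0 ± 24.4 CPM in Con.

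Among genes outside the choice of cells, Fcgr4 was at 966 CPM in the 15 cells rich in Hmox1 and 1057 CPM in the other members, the macrophage and monocyte receptor Adgre1 at 279 and 302.2 CPM, and Nr4a1 at 3097 and 4555 CPM. Of the 15 cells, 12 came from T2D and 3 from Con libraries, so every contrast with the other members is mixed with the group. Nr4a1 averaged 3651 CPM in T2D and 5669 CPM in Con members, so its lower value here cannot be told apart from the group. The 15 cells carried more of several genes of heme, iron and redox handling, which are given without a test since the cells were chosen on Hmox1 after seeing the values. Ferritin heavy chain Fth1 was at 9070 CPM in the 15 cells and 2727 CPM in the other members, and ferritin light chain Ftl1 at 6427 and 2439 CPM. Spic, a transcription factor known from heme-exposed splenic macrophages of the mouse, was at 209.6 and 27.6 CPM. The heme transporter Slc48a1 was at 221 and 59.8 CPM, and biliverdin reductase Blvrb at 128 and 46.3 CPM.

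Gclm, the modifier subunit of the glutathione-producing enzyme, was at 326 CPM in the 15 cells and 21.6 CPM in the other members, and the peroxiredoxin Prdx1 at 1770 and 392.2 CPM. The iron exporter Slc40a1 had 0 UMIs in the 15 cells, among 85886 UMIs. Haptoglobin Hp, taken up below, was lower in the 15 cells, at 151 CPM against 322 CPM in the other members. C1qa and Cd163, which mark tissue macrophages, had 0 UMIs in both sets of cells. None of the 15 had a doublet score above 0.25, and hemoglobin Hbb-bs was at 175 CPM in them and 376 CPM in the others.

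Haptoglobin Hp, whose protein binds free hemoglobin, was at 419, 456 and 316 CPM in T2D, against 248, 178 and 234 CPM in Con, a log2 fold change of 0.79 ± 0.17 (SE; adjusted p = 0.0133, edgeR). Its call ended without Con 2 or T2D 2. Hemoglobin itself, as Hbb-bs, was at 171, 1427 and 147 CPM in T2D and 61.5, 50.8 and 45.2 CPM in Con (log2 fold change 3.46, adjusted p = 0.682). The part of erythroid RNA in the Hmox1 and Hp values was not tested. On the list of oxidative burst and antioxidant genes, 1 of 21 tested members rose (Hmox1) and 0 fell, with 5 at an unadjusted p under 0.05, 1 called by DESeq2, and a median log2 fold change of 0.03. Over all 5664 genes tested, 0.23% rose, 0.53% fell and 434 had such an unadjusted p.

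Fcgr4 had 1492, 1229.8 and 1300.3 CPM in T2D libraries 1, 2 and 3, against 741, 616 and 926 CPM in Con libraries 1, 2 and 3. The means were 1341 ± 136 CPM in T2D and 761 ± 156 CPM in Con (SD, n = 3 each), a log2 fold change of 0.79 ± 0.13 (SE; adjusted p = 0.000443, edgeR). All T2D values lay above all Con values. Thinned to 1000 UMIs per cell, a Fcgr4 UMI was seen in 67.6% of T2D and 48.1% of Con members, against 0.486% and 0.315% of B cells. Here and below, shares at 1000 UMIs leave out the members and B cells with fewer than 1000 UMIs. At full depth the shares were 87.4% and 75.8%, against 1.35% and 0.815% of B cells.

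Of 15 tested Fc receptor, complement and phagocytosis genes, Fcgr4 alone passed the test and rose, as did 0.23% of all genes tested. The inhibitory receptor Fcgr2b stood at 289, 376 and 314 CPM in T2D and 242, 286 and 214 CPM in Con, with an adjusted p of 0.434. The common signalling chain Fcer1g was at 4785, 4489 and 3538 CPM in T2D, against 3857, 3727 and 3604 CPM in Con. The list had 9 positive and 6 negative values and a median of 0.06.

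Lipid handling genes moved in both directions. Plin2, which coats lipid droplets, was at 228, 310.4 and 408 CPM in T2D libraries 1, 2 and 3, against 176, 216 and 169 CPM in Con libraries 1, 2 and 3 (log2 fold change 0.81 ± 0.18, SE; adjusted p = 0.0219, edgeR). Abcg1, which passes cholesterol to high-density lipoprotein, was at 354, 312 and 402 CPM in T2D, against 188, 267 and 178 CPM in Con (0.80 ± 0.17; adjusted p = 0.0129). T2D values lay above Con values in both genes, and both calls ended without Con 1, Con 3 or T2D 3.

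Ucp2, a mitochondrial inner membrane carrier, was at 3419, 3409 and 4066 CPM in T2D, against 2604, 2558 and 2701 CPM in Con, a log2 fold change of 0.46 ± 0.10 (SE; adjusted p = 0.0122, edgeR). The Con libraries lay close together and below all T2D libraries. Its call ended without Con 1 or Con 2. Fabp4 was at 289, 281 and 283 CPM in T2D and 195, 209.5 and 147 CPM in Con, and its log2 fold change of 0.63 missed the threshold with an adjusted p of 0.0901. Of 13 tested fatty acid and PPAR target genes, 2 rose (Plin2, Ucp2), 0 fell, 4 had an unadjusted p under 0.05, and the median was 0.25. Over all 5664 genes tested, 0.23% rose, 0.53% fell and 434 had such an unadjusted p. Non-overlap with higher T2D values was seen in 6 of the 13, beside 6.87% of all genes.

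Olr1, the LOX-1 receptor for oxidised low-density lipoprotein, was at 16.3, 17.9 and 9.70 CPM in T2D libraries 1, 2 and 3, against 61.5, 63.5 and 25.4 CPM in Con libraries 1, 2 and 3. It fell with a log2 fold change of -1.79 ± 0.43 (SE; adjusted p = 0.032, edgeR), a call that ended without Con 1, Con 2 or T2D 3. Among 21 tested genes of cholesterol and lipoprotein handling, Abcg1 rose and Olr1 fell, and 10 had an unadjusted p under 0.05. Over all 5664 genes tested, 0.23% rose, 0.53% fell and 434 had such an unadjusted p. Srebf2, the master regulator of cholesterol synthesis, was at 69.1, 81.6 and 71.8 CPM in T2D, against 117, 146 and 158 CPM in Con. Its log2 fold change of -0.88 had an adjusted p of 0.0539.

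Insig1, which holds the SREBP complex back and which Srebf2 is known to switch on, was at 61.0, 53.7 and 27.2 CPM in T2D and 79.5, 88.9 and 95.9 CPM in Con, with an adjusted p of 0.185. In Insig1 and in Srebf2 the groups did not overlap. The cholesterol exporter Abca1 overlapped, at 73.2, 113 and 93.2 CPM in T2D and 51.0, 88.9 and 53.6 CPM in Con. The scavenger receptor Cd36 was at 1329, 1323 and 1657 CPM in T2D and 1001, 1314 and 1092 CPM in Con, with an adjusted p of 0.291. On the whole list the median was -0.04, with 3 genes higher and 5 lower without overlap, beside 6.87% and 6.48% of all genes.

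Irgm1, an interferon-induced GTPase of defence within the cell, was at 106, 71.6 and 58.2 CPM in T2D, against 36.0, 12.7 and 22.6 CPM in Con (log2 fold change 1.39 ± 0.34, SE; adjusted p = 0.0363, edgeR). It rose, but the call held in only 1 of the 6 fits with a library left out, the one without T2D 3. It also ended with doublets left out (adjusted p = 0.0548) and with the narrowed gates (0.061). Its neighbour in function Irgm2 was at 52.8, 33.8 and 36.9 CPM in T2D and 10.5, 6.35 and 16.9 CPM in Con, with a log2 fold change of 1.69 and an adjusted p of 0.0901. Of 28 tested interferon-stimulated genes, 25 had positive and 3 negative values, with a median of 0.37, against 0.01 over all genes. Irgm1 alone passed the test in edgeR, and 8 had an unadjusted p under 0.05. Over all 5664 genes tested, 0.23% rose and 434 had such an unadjusted p. DESeq2 called 0 of the 28, but it gave Irgm1 no adjusted p.

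Other members of the list show how far the libraries differ. The transcription factor Stat2 was at 118, 83.6 and 120.3 CPM in T2D and 58.5, 95.2 and 42.3 CPM in Con, so that T2D 2 overlapped the Con range. The guanylate-binding protein gene Gbp2 was at 154, 61.7 and 182 CPM in T2D and 81.0, 38.1 and 73.4 CPM in Con. In 7 of the 28, every T2D library was above every Con library, beside 6.87% of all genes.

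**Figure D4:**
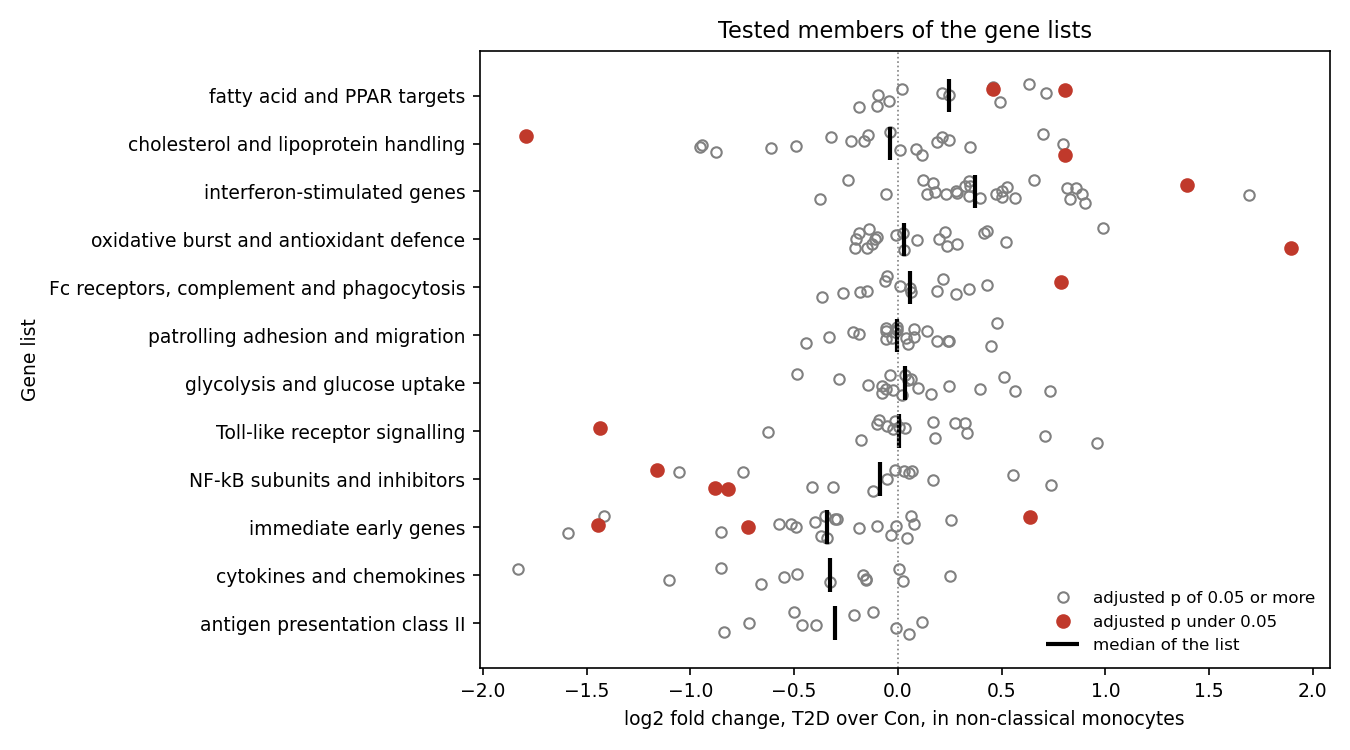
Log2 fold changes of T2D against Con in non-classical monocytes for the tested members of 12 gene lists, with 1 point a gene. Filled red points passed an adjusted p under 0.05 and the bar in each list is its median. Interferon-stimulated genes have a median of 0.37 and immediate early genes one of -0.34.

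Tlr2, the surface receptor for bacterial lipopeptides, fell. It was at 187, 167 and 116 CPM in T2D libraries 1, 2 and 3, against 381, 546 and 349.9 CPM in Con libraries 1, 2 and 3, a log2 fold change of -1.44 ± 0.19 (SE; adjusted p = 1.79e-05, edgeR). The highest T2D library lay well below the lowest Con library. Thinned to 1000 UMIs, a Tlr2 UMI was seen in 16.9% of T2D and 33.5% of Con members, against 0.710% and 0.836% of B cells. At full depth the shares were 36.4% and 59.6%, against 2.07% and 2.66% of B cells.

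Tlr2 is also a neutrophil gene. The neutrophil sums of the same libraries were 195, 1819 and 316 CPM in T2D, against 2167, 1473 and 940 CPM in Con. With the gates narrowed against neutrophils and other cells Tlr2 passed the test (adjusted p = 3.26e-05, edgeR). The part of neutrophil RNA in the Tlr2 values was not tested.

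Rel, the NF-kB subunit c-Rel, was at 264, 322 and 371 CPM in T2D, against 468, 743 and 604 CPM in Con (log2 fold change -0.88 ± 0.16, SE; adjusted p = 0.00207, edgeR). Nfkbiz, an inducible nuclear partner of NF-kB, was at 862, 577 and 658 CPM in T2D, against 1174, 1371 and 1109 CPM in Con (-0.82 ± 0.13; adjusted p = 0.000443). Tnfaip3, the A20 enzyme that shuts NF-kB signalling off, was at 512, 308 and 334 CPM in T2D, against 873, 1003 and 652 CPM in Con (-1.16 ± 0.20; adjusted p = 0.0133), a call that ended without Con 1 or T2D 3. All 3 fell with no overlap. A Rel UMI was seen in 21.3% of T2D and 40.6% of Con members at 1000 UMIs per cell, and in 32.9% and 38.3% of B cells, which also express it.

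The list of NF-kB subunits and inhibitors had 16 tested members, of which these 3 fell and 0 rose, beside 0.53% and 0.23% of all genes, with a median of -0.08. DESeq2 called 4 of the 16. Nfkbia, the IkB-alpha inhibitor, was at 2439, 1459 and 1425 CPM in T2D and 3296, 2793 and 2703 CPM in Con, without overlap, but its log2 fold change of -0.75 had an adjusted p of 0.548. The subunit Nfkb1 was at 256, 362 and 386 CPM in T2D and 347, 375 and 336 CPM in Con.

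Other Toll-like receptors did not pass the test. Tlr7, the endosomal receptor for single-stranded RNA, was at 317, 298 and 297 CPM in T2D and 207, 292 and 271 CPM in Con (log2 fold change 0.27, adjusted p = 0.764). Tlr13, a receptor for bacterial ribosomal RNA in the mouse, was at 386, 420 and 355 CPM in T2D and 354, 356 and 310.4 CPM in Con. Tlr4, the endotoxin receptor, was at 12.2, 9.95 and 9.70 CPM in T2D and 9.005, 6.35 and 11.3 CPM in Con and was too low to be tested. Of 17 tested members of the Toll-like receptor list, 1 fell and 0 rose, beside 0.53% and 0.23% of all genes, and the median was 0.01.

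The promoters of 3 of the genes that fell are shown because NF-kB is known to induce several genes of its own pathway, Rel and Tnfaip3 among them. Each is the RefSeq window on build GRCm38.p6, from 250 bases before to 50 bases after the transcript start, all on the minus strand, and printed 5′ to 3′ on the strand of the gene. The windows are chr3:83841559-83841858 for Tlr2, chr11:23770920-23771219 for Rel and chr10:19015361-19015660 for Tnfaip3, the first of 2 windows listed for that gene. Capitals mark matches to the NF-kB consensus, searched on both strands and joined where they overlap. No promoter window is listed for Nfkbiz, so its promoter was not searched.
Tlr2: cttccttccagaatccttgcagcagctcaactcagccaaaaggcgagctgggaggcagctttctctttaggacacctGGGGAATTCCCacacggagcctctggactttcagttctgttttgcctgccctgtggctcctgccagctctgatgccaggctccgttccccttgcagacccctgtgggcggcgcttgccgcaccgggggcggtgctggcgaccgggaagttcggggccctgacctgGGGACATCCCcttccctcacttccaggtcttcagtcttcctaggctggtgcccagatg
Rel: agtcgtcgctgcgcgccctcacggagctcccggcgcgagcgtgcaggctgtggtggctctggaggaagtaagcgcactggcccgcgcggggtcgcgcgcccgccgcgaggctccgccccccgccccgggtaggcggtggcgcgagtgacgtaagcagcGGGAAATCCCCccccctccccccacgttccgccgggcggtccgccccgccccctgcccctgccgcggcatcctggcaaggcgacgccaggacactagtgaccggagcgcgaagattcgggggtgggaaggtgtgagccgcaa
Tnfaip3: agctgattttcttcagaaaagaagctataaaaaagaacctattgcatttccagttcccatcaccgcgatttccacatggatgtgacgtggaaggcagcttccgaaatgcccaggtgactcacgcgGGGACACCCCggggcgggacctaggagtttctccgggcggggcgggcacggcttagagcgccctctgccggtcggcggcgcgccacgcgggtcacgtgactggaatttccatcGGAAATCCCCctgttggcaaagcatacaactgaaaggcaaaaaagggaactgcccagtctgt

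The Tlr2 window held 3 such matches, of which the first pair overlap, the Rel window 2 overlapping ones and the Tnfaip3 window 2. Over all 27025 RefSeq promoter windows, 8.18% held at least 1 match. Among the genes that fell and have a window, 5 of 23 held 1 (Tlr2, Bbc3, Tnfaip3, Rel and Nr4a1), and among those that rose 2 of 9 (Fcgr4 and Plin2). The AP-1 type site TGACTCA, also searched on both strands, was in 5.17% of all windows, in 3 of the 23 (Cd84, Olr1 and Tnfaip3) and in 1 of the 9 (Irgm1). A match is a run of letters and not a binding measurement.

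Cytokine and chemokine genes gave 0 calls among 13 tested in edgeR, with 3 at an unadjusted p under 0.05, a median of -0.33 and 10 negative values. Over all 5664 genes tested, 434 had such an unadjusted p. DESeq2, where it gave an adjusted p, also called 0. Tnf was at 106, 31.8 and 42.7 CPM in T2D and 209, 286 and 93.1 CPM in Con, so that T2D 1 overlapped the Con range. Il1b, which neutrophils also make in quantity, was at 346, 842 and 320.2 CPM in T2D and 989, 540 and 556 CPM in Con. The neutrophil sums of the same libraries were 195, 1819 and 316 CPM in T2D and 2167, 1473 and 940 CPM in Con. The part of neutrophil RNA in the Il1b values was not tested. The chemokine Ccl6 was at 642, 615 and 635 CPM in T2D and 908, 692 and 728 CPM in Con, without overlap and with an adjusted p of 0.433.

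Among quickly induced genes, the transcription factor Csrnp1 and the nuclear protein Ier2 fell. Csrnp1 was at 171, 127 and 124 CPM in T2D libraries 1, 2 and 3, against 414, 438 and 274 CPM in Con libraries 1, 2 and 3, a log2 fold change of -1.45 ± 0.19 (SE; adjusted p = 1.79e-05, edgeR). Ier2 was at 398, 346 and 344 CPM in T2D, against 645, 692 and 446 CPM in Con (-0.72 ± 0.15; adjusted p = 0.0129), a call that ended without Con 1, Con 2 or T2D 3. Against this direction Dusp5, a nuclear phosphatase that switches ERK off, rose, with 711, 1051 and 901 CPM in T2D, against 662, 495 and 528 CPM in Con (0.64 ± 0.14; adjusted p = 0.0133). The Dusp5 call held without Con 1 or T2D 1 and ended without each of the other 4 libraries.

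Of 23 tested immediate early genes, 1 rose and 2 fell, 18 had negative values, 12 had an unadjusted p under 0.05, and the median was -0.34. Over all 5664 genes tested, 0.23% rose, 0.53% fell and 434 had an unadjusted p under 0.05. Junb, a subunit of AP-1, was at 1329, 1299 and 955 CPM in T2D and 2511, 2349 and 1558 CPM in Con, without overlap, at an adjusted p of 0.336. Maff, another bZIP factor, was at 4.07, 11.9 and 13.6 CPM in T2D and 25.5, 69.8 and 25.4 CPM in Con. Such genes are known to respond to cell handling as well as to signals in the animal, and the sources used here give no handling times.

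Nr4a1, on which these cells depend, fell. It was at 3724, 3654 and 3577 CPM in T2D libraries 1, 2 and 3, against 5649, 7034 and 4323 CPM in Con libraries 1, 2 and 3, with means of 3651 ± 73.4 CPM and 5669 ± 1356 CPM (SD, n = 3 each). This gave -0.64 ± 0.14 on the log2 scale (SE; adjusted p = 0.0424, edgeR), and the call ended without Con 1, Con 2, T2D 1 or T2D 3. The 3 T2D libraries were nearly level while the Con libraries spread widely. A Nr4a1 UMI was seen in 96.6% of T2D and 97.5% of Con members at 1000 UMIs per cell, against 17.5% and 33.0% of B cells.

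Other factors of the lineage did not pass the test. Of 19 tested transcription and survival factors, Nr4a1 fell and 0 rose, beside 0.53% and 0.23% of all genes, with a median of -0.03. Pou2f2 had a log2 fold change of 0.14 and Cebpb, which monocytes need to persist without Ly6C, one of -0.15. Among 21 tested genes of patrolling adhesion and migration, 0 passed in edgeR or, where it gave an adjusted p, in DESeq2. An unadjusted p under 0.05 was found for 1 (the adhesion molecule Ceacam1), beside 434 of all 5664 genes, and the median was -0.00. Itgal had a log2 fold change of -0.00, Cx3cr1 one of -0.03 and Spn one of 0.25.

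Tgif1 and Klf10, transcription regulators tied to TGF-beta signalling, both fell. Klf10 was at 171, 161 and 159 CPM in T2D, against 348, 419 and 384 CPM in Con, with means of 164 ± 6.19 CPM and 384 ± 35.4 CPM (SD, n = 3 each; log2 fold change -1.23 ± 0.16, adjusted p = 1.79e-05, edgeR). Tgif1 was at 118, 137 and 177 CPM in T2D, against 323, 521 and 257 CPM in Con (-1.26 ± 0.21; adjusted p = 0.00239). Tgfbi, a secreted TGF-beta-induced matrix protein, was at 183, 161 and 199.9 CPM in T2D, against 311, 235 and 336 CPM in Con (-0.74 ± 0.17; adjusted p = 0.0226), a call that ended without Con 1, Con 3, T2D 2 or T2D 3. All 3 genes had no overlap. Thinned to 1000 UMIs, a Klf10 UMI was seen in 12.6% of T2D and 31.0% of Con members, against 3.79% and 4.35% of B cells.

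Of 20 tested genes of apoptosis and the p53 response, Cdkn1a and Bbc3 fell and 0 rose, with a median of 0.11. Over all genes tested, 0.53% fell and 0.23% rose. Cdkn1a, the cell cycle inhibitor p21, was at 443, 344 and 415 CPM in T2D, against 633, 768 and 615 CPM in Con (log2 fold change -0.75 ± 0.14, SE; adjusted p = 0.00239, edgeR). Bbc3, the death protein Puma, was at 65.0, 69.6 and 62.1 CPM in T2D, against 120.1, 190.5 and 107 CPM in Con (-0.99 ± 0.24; adjusted p = 0.0379). Plk3, a stress kinase, was at 48.8, 53.7 and 58.2 CPM in T2D, against 137, 133 and 76.2 CPM in Con (-1.10 ± 0.26; adjusted p = 0.0303). The groups stood apart in each, but the calls of Bbc3 and Plk3 ended when any library but Con 3 was left out. The Plk3 call also ended with the narrowed gates, at an adjusted p of 0.11.

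Among the remaining genes that rose, Shtn1, a cytoskeletal linker known from growing axons, was at 89.4, 111 and 111 CPM in T2D, against 40.5, 19.0 and 45.2 CPM in Con (log2 fold change 1.44 ± 0.28, SE; adjusted p = 0.00435, edgeR). Dnah12, itself among the genes that set these cells apart from classical monocytes, was at 211, 129 and 171 CPM in T2D, against 85.5, 69.8 and 64.9 CPM in Con (1.11 ± 0.22; adjusted p = 0.00727), and missed the threshold without T2D 3 with an adjusted p of 0.054. Man2a1, a Golgi mannosidase that trims glycans, was at 333, 277 and 278 CPM in T2D, against 204, 82.5 and 141 CPM in Con (0.89 ± 0.20; adjusted p = 0.022), and its call ended without Con 2, Con 3, T2D 1 or T2D 3. The groups did not overlap in these 3 genes.

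Fkbp5, a chaperone that glucocorticoids induce, was at 32.5, 27.9 and 83.5 CPM in T2D, against 7.50, 19.0 and 16.9 CPM in Con, from 8, 14 and 43 UMIs and from 5, 3 and 6 UMIs. Its log2 fold change of 2.00 ± 0.48 (SE; adjusted p = 0.0351, edgeR) was the largest among the named genes that rose, and the call held without Con 3, T2D 1 or T2D 2 and ended without each of the other 3 libraries. Of 13 tested glucocorticoid-induced genes, Fkbp5 rose and Tgfbi fell, beside 0.23% and 0.53% of all genes, and the median was 0.04. The linker histone H1f2 was at 126, 175 and 272 CPM in T2D, against 104, 114 and 87.5 CPM in Con (0.97 ± 0.22; adjusted p = 0.0226). A single cell of T2D 3 held 33 of its UMIs, and the call ended without T2D 3 or any 1 Con library.

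Of the remaining named genes that fell, Socs3, which limits cytokine signals, was at 89.4, 63.7 and 79.6 CPM in T2D, against 192, 165 and 90.3 CPM in Con (log2 fold change -1.02 ± 0.25, SE; adjusted p = 0.0377, edgeR). Smim3, a small membrane protein, was at 32.5, 49.7 and 23.3 CPM in T2D, against 101, 121 and 70.5 CPM in Con (-1.41 ± 0.31; adjusted p = 0.0133). The SLAM receptor Cd84 was at 48.8, 49.7 and 56.3 CPM in T2D, against 109.6, 108 and 95.9 CPM in Con (-1.02 ± 0.25; adjusted p = 0.0379), and its adjusted p was 0.643 with the narrowed gates. The Socs3 call ended without Con 1, Con 2, T2D 2 or T2D 3, that of Smim3 without Con 1, Con 2 or T2D 3, and that of Cd84 without any library but Con 3.

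The last 2 of the 32 named genes are also transcripts of B cells. The B cell lectin Cd22 was at 32.5, 39.8 and 23.3 CPM in T2D, against 81.0, 69.8 and 70.5 CPM in Con (log2 fold change -1.25 ± 0.31, SE; adjusted p = 0.0379, edgeR), and a Cd22 UMI was seen in 4.23% of T2D and 6.63% of Con members but in 56.9% and 53.8% of B cells at 1000 UMIs. The transcript AI504432 was at 20.3, 27.9 and 23.3 CPM in T2D, against 64.5, 159 and 53.6 CPM in Con (-1.69 ± 0.37; adjusted p = 0.0152), and was seen in 2.91% of T2D and 8.21% of Con members but in 18.0% and 17.2% of B cells. The Cd22 call ended without any library but T2D 2, and that of AI504432 without Con 2 or T2D 3. The sums of the 11 B cell markers in the members overlapped between the groups. Of the 4 such markers tested, 3 had negative and 1 a positive log2 fold change, and 0 were called. Cd79a was lower in every T2D library than in any Con library, while Cd79b and Ms4a1 overlapped. The part of B cell RNA in the Cd22 and AI504432 values was not tested.

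Other pathway lists without a call, beside those of cytokines and of patrolling adhesion above, were those of glycolysis and glucose uptake (19 tested, median 0.04, 0 with an unadjusted p under 0.05), class II antigen presentation (10 tested, median -0.30, 0) and coagulation and matrix (7 tested, median -0.56, 4). An unadjusted p under 0.05 was found for 434 of all 5664 genes tested. DESeq2, where it gave an adjusted p, also called 0 in each of these lists. The class II gene H2-Aa was at 589, 223 and 316 CPM in T2D and 473, 463 and 824 CPM in Con, and its 5 richest cells held 56.6%, 23.2% and 34.4% of its UMIs in T2D, against 25.4%, 52.1% and 63.7% in Con. The urokinase receptor Plaur was at 346, 575 and 602 CPM in T2D and 618, 914 and 779 CPM in Con, with an adjusted p of 0.336.

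Whether a T2D effect differed between the monocyte types was tested as the difference between their log2 fold change and that of classical monocytes in the same libraries. This difference passed for 41 of 7073 genes (0.58%), 9 with a more positive T2D effect in non-classical cells (0.127%) and 32 with a more negative one (0.452%). Of the 32 named genes, 8 were among them. Abcg1 was at 354, 312 and 402 CPM in T2D and 188, 267 and 178 CPM in Con in non-classical cells, but at 114, 107 and 105 CPM in T2D and 134, 148 and 128 CPM in Con in classical ones. Its log2 fold change was 0.80 in non-classical and -0.33 in classical cells, a difference of 1.09 ± 0.22 (SE; adjusted p = 0.0054, edgeR).

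Man2a1, Hp and Dusp5 also had a more positive T2D effect in non-classical cells, with differences of 0.96, 0.71 and 0.78 and adjusted p of 0.0361, 0.0263 and 0.0108. Klf10, Csrnp1, Cd84 and AI504432 had a more negative one, with differences of -0.98, -0.74, -1.06 and -2.10 and adjusted p of 0.0065, 0.0332, 0.0371 and 0.0010. With each library left out in turn, the difference passed in all 6 fits for AI504432, in 5 for Abcg1 (not without Con 1) and Klf10 (not without T2D 2), in 4 for Dusp5 (not without Con 3 or T2D 2), in 2 for Man2a1, Hp and Csrnp1 (not without Con 1, Con 2, T2D 1 or T2D 2) and in 1 for Cd84 (without Con 3). In classical cells the log2 fold change was -0.03 for Man2a1, 0.11 for Hp, -0.10 for Dusp5, -0.25 for Klf10, -0.63 for Csrnp1, 0.04 for Cd84 and 0.20 for AI504432, none of which passed. For Hmox1 the log2 fold change was 1.90 in non-classical and 0.38 in classical cells, and the difference of 1.56 had an adjusted p of 0.167.

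In the classical cells 50 of 6616 genes passed for T2D against Con (0.756%), 31 higher (0.469%) and 19 lower (0.287%), and the NF-kB pathway genes fell in both types. Rel had a log2 fold change of -0.88 in non-classical and -1.14 in classical cells, Nfkbiz -0.82 and -1.27, and Tnfaip3 -1.16 and -1.33. Their differences of 0.28, 0.48 and 0.18 had adjusted p of 0.861, 0.0923 and 0.913. Tlr2 had -1.44 in non-classical and -0.73 in classical cells, where it also passed (adjusted p = 0.00771, edgeR), with a difference of -0.70 and an adjusted p of 0.0858. The classical Tlr2 call ended with the narrowed gates (adjusted p = 0.739) and without Con 2 or T2D 2. Shtn1, H1f2 and Tgif1 passed in the same direction in both types. In classical cells the Tgif1 call ended with the narrowed gates (adjusted p = 0.685) and without Con 3 or T2D 2, and the Shtn1 call ended without T2D 2, while Shtn1 was not tested there with the narrowed gates.

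Limits of the test of differences bear on all of these. With both gates narrowed against other cells, which kept 172 of the 855 classical cells, 2 genes passed (Junb and Pla2g7). DESeq2 called 1 (Il1b), and these 3 names are given after their values were seen. The count was 14 without Con 1 and 24 without Con 2. In simulated counts with 200 genes changed by 1 on the log2 scale, the test recovered 2.5% of them, against 34.0% for T2D against Con in non-classical cells, so a missed threshold says little. The simulated counts had the same preset spread for every gene. In the test of differences, some changed genes could have few counts in non-classical cells. These shares are therefore not the power of the tests on the real counts.

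**Figure D5:**
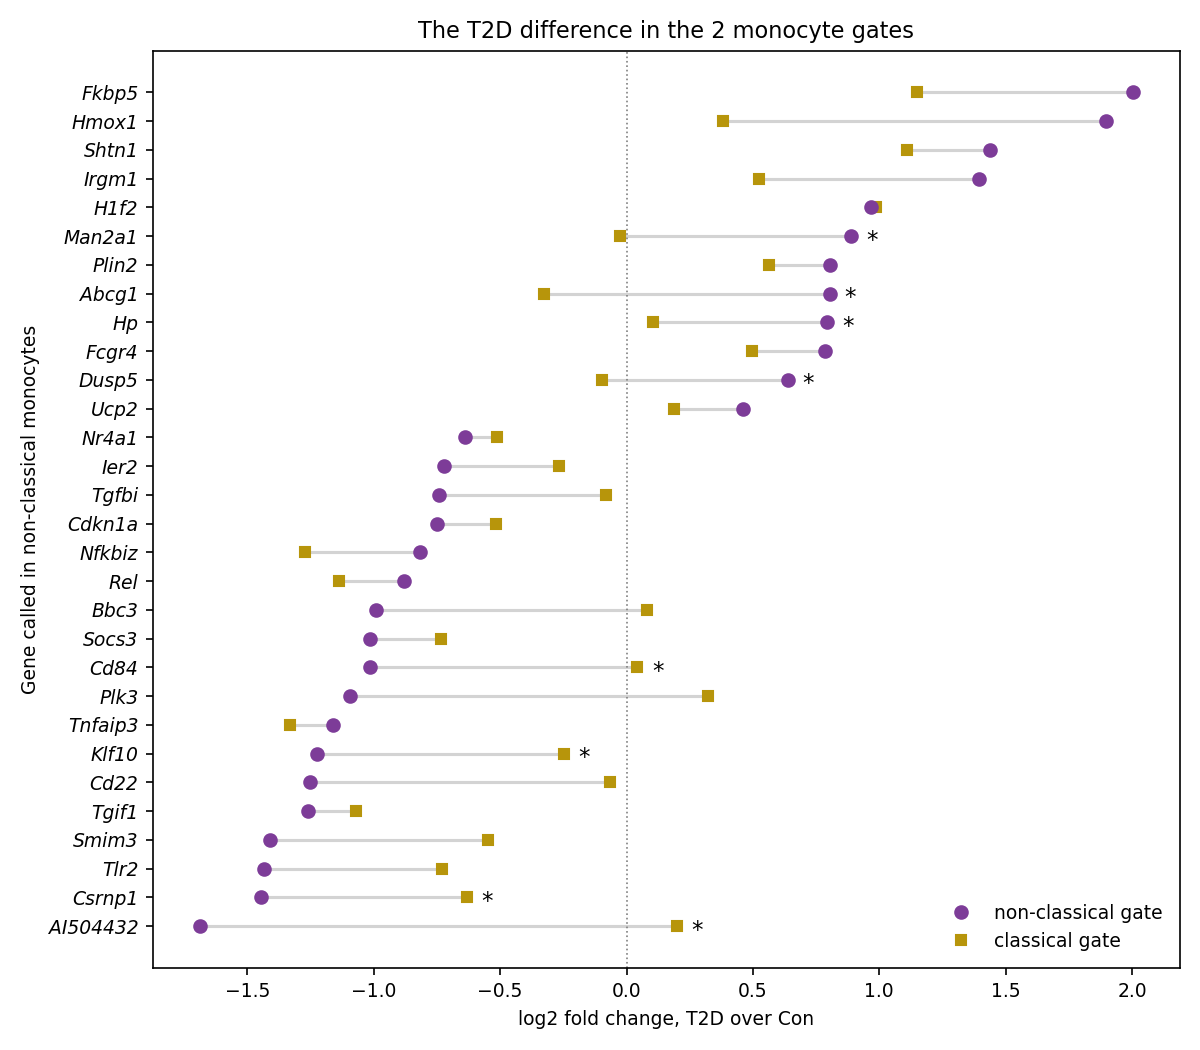
Log2 fold changes of T2D against Con for 30 named genes tested in both cell types, in non-classical (purple circles) and classical (gold squares) monocytes. A star marks an adjusted p under 0.05 for the difference between the types, which 8 genes reached, among them Abcg1 (0.80 and -0.33) and Klf10 (-1.23 and -0.25).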

How the data were processed

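UMI counts per gene and cell barcode were used as the authors deposited them, 1 matrix of 31253 genes per library. Seurat, UMI-tools and CASAVA 1.8 are named in the submitters' processing notes, with build mm10. The aligner and the gene annotation were not given in the sources used here. Of 49407 deposited barcodes, 49025 were kept. Transcript 3′ ends were captured, so CPM was not corrected for gene length and compares 1 gene between samples. Counts were summed over the gated cells of a library, since cells are not replicates, and the 15 genes of the gate stayed in the library sizes but out of the tests.

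Sums were compared with edgeR 4.0.16 (TMM scaling, its expression filter, robust quasi-likelihood test, Benjamini-Hochberg adjustment, threshold 0.05). The comparison of cell types kept the library as a block and required 1 on the log2 scale, and the difference of T2D effects was an interaction term. Alternatives were DESeq2 1.42.0, RLE size factors, library totals alone, no filter on low counts, 3 marker UMIs, a gate set on cells thinned to 1000 UMIs, a mitochondrial limit of 10%, doublets left out, each library left out, a replicate block, and narrowed gates. Cells chosen by the gate on thinned counts entered the sums with their full counts. The narrowed gates, chosen after seeing the data, limited neutrophil, eosinophil, natural killer, platelet and dendritic cell transcripts. Doublet scores followed the scheme of simulated doublets, 2 per cell, and marked 2.13 to 3.07% of cells per library. Pairs of libraries differed beyond counting noise.

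Genes named for T2D against Con were called genes with a mean of at least 20 CPM in either group, the 12 with the largest change in each direction, and called members of the gene lists. For cell types they were the markers and the 10 largest changes each way at 100 CPM or more. The cells, markers and lists were chosen with earlier results of these data known. Mx1, Mx2, Clec7a and Aldoa were not analysed here. The tests were tested on simulated data. Python 3.11.15, scipy 1.17.1, scikit-learn 1.9.0, matplotlib 3.10.9 and R 4.3.3 were used.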

Additional observations from a re-analysis of the deposited data

Results flagged for a closer look

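For 12 genes the T2D effect, as a log2 fold change against Con, differed between non-classical and classical monocytes by the interaction test of edgeR. DESeq2 called 0 of the 12. With the narrowed gates 6 of them were still tested and 0 passed, so each is given as a value without an explanation.

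Lacc1, an enzyme of macrophage purine metabolism, differed by 1.97 (adjusted p = 0.0029) and kept its call with any 1 library left out. It was at 138, 123 and 105 CPM in T2D and 108, 95.2 and 93.1 CPM in Con in non-classical cells, and at 20.6, 21.6 and 7.90 CPM in T2D and 49.9, 69.2 and 57.7 CPM in Con in classical ones. Sod2, the mitochondrial superoxide dismutase, differed by 1.31 (adjusted p = 0.0010) and also kept its call with any 1 library left out. It was at 232, 173 and 173 CPM in T2D and 176, 190.5 and 166 CPM in Con in non-classical cells, and at 120.1, 111 and 67.1 CPM in T2D and 231, 220.4 and 241 CPM in Con in classical ones. For both genes the T2D and Con libraries stood apart in the classical cells, while they overlapped in the non-classical cells.

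Abcg1 differed by 1.09 (adjusted p = 0.0054), Man2a1 by 0.96 (adjusted p = 0.0361), the GTPase Arl5c by 0.95 (adjusted p = 0.0289) and Marcksl1, an actin-binding protein, by 0.92 (adjusted p = 0.0263). Abcg1 lost the call without Con 1, and the other 3 each lost it without 4 of the 6 libraries.

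The other 6 genes had few UMIs in non-classical cells. Arhgap10 differed by -6.65 (adjusted p = 0.0054), with 0, 0 and 0 UMIs in T2D and 7, 2 and 1 UMIs in Con in non-classical cells. At 3 counts as the limit that a count of 0 allows, Arhgap10 could reach 2.37 CPM over all T2D members. The 10 UMIs of all Con members came to 8.49 CPM, with 2.82 CPM in Con 3, and carry a counting error of their own. Arhgap10 was too low for a test of T2D against Con in non-classical cells alone. Cpne2 differed by -4.47 (adjusted p = 0.0263), with 0, 1 and 0 UMIs in T2D and 4, 1 and 9 in Con. Tmem176a differed by -3.37 (adjusted p = 0.0133), with 2, 0 and 1 UMIs in T2D and 13, 2 and 7 in Con. Syne1 differed by -3.22 (adjusted p = 0.0389), Rgcc by -2.74 (adjusted p = 0.0339) and Otud7b by -2.65 (adjusted p = 0.0377), with at most 7 UMIs in any T2D library and at most 24 in any Con library. All 6 had higher means in T2D than in Con in the classical cells, and each of the 6 lost the call without at least 1 library, Arhgap10 without Con 1.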

How the results depend on the processing

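For T2D against Con in non-classical monocytes, where 43 genes passed, DESeq2 called 26 and a fit with no filter on low counts 100. Leaving out 1 library at a time gave 18 to 57. Of the 32 named genes, 29 passed with the narrowed gates (not Irgm1, Plk3 or Cd84), 31 without doublets (not Irgm1), 31 with 3 marker UMIs (not Cd84), 18 with the gate set on cells thinned to 1000 UMIs, and 19 with DESeq2, which gave no adjusted p for the other 13. All 32 passed with RLE size factors, library totals alone, a mitochondrial limit of 10% and no filter, and no value changed sign under any of these. The 7 genes that passed in every alternative were Cdkn1a, Fcgr4, Hmox1, Klf10, Rel, Tgif1 and Tlr2. For the difference of T2D effects, where 41 passed, the counts were 23 with 3 marker UMIs, 2 with narrowed gates and 1 with DESeq2, and 14 to 50 with 1 library left out. For non-classical against classical cells, where 943 passed, they were 450 with narrowed gates, 1693 with no filter and 944 to 978 with 1 library left out. The cause of these moves was not tested. The log2 ratio of the share of kept barcodes ran from -0.36 to 0.51 with 1 library left out, and that of the share of monocytes from -0.37 to 0.14.

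Library numbers in the titles were not taken to pair the samples: deviations of same-numbered libraries correlated at 0.058, 0.049 and 0.028 over 1000 genes. With a replicate block 62 genes passed for T2D against Con, 29 of the 32 named genes among them (not Plk3, Cd84 or Socs3), and the log2 ratios of the shares were 0.03 and -0.06.

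Con 2 gave 157517 UMIs over 53 cells, which limits what low genes can show. Genes under about 20 CPM rest on a few UMIs per library there.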

Other observations

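Beyond the genes named above, 11 called genes fell in T2D non-classical monocytes and are named here after their values were seen. They include regulators of RNA decay and stress recovery. Zc3h12a, the RNase Regnase-1 that degrades cytokine transcripts, was at 130.1, 109 and 99.0 CPM in T2D and 221, 229 and 161 CPM in Con (log2 fold change -0.88 ± 0.20, SE; adjusted p = 0.0188, edgeR). Ppp1r15a, which reverses the arrest of translation under stress, was at 236, 153 and 227 CPM in T2D and 399, 330.1 and 271 CPM in Con (-0.75 ± 0.18; adjusted p = 0.036). Ccnl1, a cyclin of RNA splicing, was at 508, 505 and 594 CPM in T2D and 840.5, 1149 and 762 CPM in Con (-0.76 ± 0.14; adjusted p = 0.0021) and kept its call with any 1 library left out, whereas Zc3h12a lost it without Con 1, Con 2 or T2D 3 and Ppp1r15a without Con 1, Con 2, T2D 2 or T2D 3.

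Skil, the repressor SnoN of SMAD signalling, was at 207, 291 and 198 CPM in T2D and 414, 578 and 339 CPM in Con (-0.89 ± 0.19; adjusted p = 0.0133), a call that ended without Con 1, Con 2, T2D 1 or T2D 3. Of 2 surface receptors, Cd83 was at 138, 167 and 124 CPM in T2D and 270.1, 273 and 257 CPM in Con (-0.90 ± 0.18; adjusted p = 0.0068), and the checkpoint receptor Havcr2 (Tim-3) at 102, 89.5 and 87.3 CPM in T2D and 141, 203 and 164 CPM in Con (-0.83 ± 0.21; adjusted p = 0.0439). The Cd83 call ended without Con 1 or T2D 3, and the Havcr2 call without any 1 library. The other 5 genes were Pnrc1, Midn, Irf2bp2, Actg1 and Ifrd1, with log2 fold changes between -0.91 and -0.65 and no overlap between the groups. The Irf2bp2 and Actg1 calls ended without any library but Con 3, that of Pnrc1 without Con 1, Con 2 or T2D 1, that of Ifrd1 without Con 1, Con 2 or T2D 3, and that of Midn without Con 2 or T2D 3. With the narrowed gates the calls of Irf2bp2, Actg1 and Ppp1r15a ended, at adjusted p of 0.151, 0.101 and 0.0526.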
